A study of Rattus norvegicus with 12 samples.

Results

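Expression of 10 named genes of bone morphogenetic protein (BMP) signalling was followed in 12 rat RNA libraries made from cells that had been deprived of oxygen and glucose and then reperfused (OGD/R), a culture model of ischaemia. They were the ligands Bmp2 and Bmp4, the secreted antagonist Grem1, the receptors Bmpr1a and Bmpr2, the inhibitory Smads Smad6 and Smad7, and the targets Id1, Id2 and Id3. Members were taken by gene symbol from a table of 18344 rows. Of the 10 genes, 9 matched a row and all 9 entered the 14257 genes tested, those with at least 1 FPKM (fragments scaled to transcript length and library size) in 3 or more libraries. Bmp4 met that minimum only through the si groups. Grem1 is not analysed here.

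The 4 groups, of 3 libraries each, were labelled CIRBP, NC, si-CIRBP and si-NC, and every group had undergone OGD/R. The labels name H9C2, a line derived from embryonic rat heart, but their cell line entry reads rat astrocytes, which leaves the cells uncertain. The labels do not spell out NC and si, and do not say how Cirbp, the cold-inducible RNA-binding protein, was manipulated. The columns of CIRBP and NC carry a prefix, ad, that those of the si groups lack, and the sources used here do not say whether both arms shared cells and handling. The titles call the libraries biological replicates without saying what was separate, so their spread may be partly technical.

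BMP ligands bind a pair of type I receptors, such as Bmpr1a, and a pair of type II receptors, such as Bmpr2. The activated type I receptor phosphorylates Smad1, Smad5 and Smad9, which join Smad4 and enter the nucleus, where the Id genes and the inhibitory Smads are among their best-known direct targets. Id proteins lack a DNA-binding region and hold E proteins (Tcf3, Tcf4 and Tcf12) away from E-box sequences, which holds back muscle differentiation. In astrocytes, BMP signalling is known to favour Gfap expression.

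The libraries differed in more than the labels name. Cirbp averaged 35.8 ± 1.27 FPKM in CIRBP and 19.7 ± 0.557 FPKM in NC (SD, n = 3 here and for every group mean below). It averaged 27.6 ± 1.04 FPKM in libraries labelled si-CIRBP and 26.7 ± 2.43 FPKM in si-NC, so the transcript goes against the si-CIRBP label. The deposited FPKM summed to between 457775 and 502889 per library, and the steps between low values put each depth at 0.843 to 1.03 times that of NC library 1. In both si groups library 1 stood apart from libraries 2 and 3 for some genes and not for others. Myog in library 1 was at 4.02% of the mean of libraries 2 and 3 in si-CIRBP and 6.13% in si-NC. Bmpr2 was at 99.8% in si-CIRBP and 108% in si-NC. This was not measured over all genes. The median SD of a gene on the log2(FPKM + 1) scale was 0.057 in CIRBP and 0.0539 in NC, against 0.147 in si-CIRBP and 0.133 in si-NC. Of 12 skeletal and cardiac muscle markers with a row, 10 averaged under 1 FPKM in CIRBP and 9 in NC, against 4 in si-CIRBP and 5 in si-NC. Of 7 astrocyte markers with a row, Gfap and S100b had lower means in both si groups than in CIRBP and NC, and 4 had higher means there.

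Promoter sequence was matched by symbol for 8 of the 10 members in RefSeq (rat build GRCr8). The 250 bases before the start are shown for Bmp4, whose level separated the si groups from the other pair, for Id1, whose level separated CIRBP from NC, and for Id2, which did not separate them. Capitals mark matches, on both strands, to the BMP Smad element GGCGCC, the Smad element CAGAC, which a reverse match shows as GTCTG, and the E-box CANNTG, and no matches overlap.
Bmp4, chr15:22101934-22102183, minus strand: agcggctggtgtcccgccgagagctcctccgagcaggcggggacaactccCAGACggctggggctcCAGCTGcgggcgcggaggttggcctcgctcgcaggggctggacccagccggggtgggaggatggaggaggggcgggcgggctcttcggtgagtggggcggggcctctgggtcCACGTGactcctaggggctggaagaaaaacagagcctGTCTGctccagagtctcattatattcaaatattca
Id1, chr3:161671314-161671563, plus strand: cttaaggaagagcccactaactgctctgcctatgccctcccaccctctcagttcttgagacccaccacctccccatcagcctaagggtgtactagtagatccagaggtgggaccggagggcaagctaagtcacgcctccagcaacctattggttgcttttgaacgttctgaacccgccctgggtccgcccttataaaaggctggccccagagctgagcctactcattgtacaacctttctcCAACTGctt
Id2, chr6:47470996-47471245, minus strand: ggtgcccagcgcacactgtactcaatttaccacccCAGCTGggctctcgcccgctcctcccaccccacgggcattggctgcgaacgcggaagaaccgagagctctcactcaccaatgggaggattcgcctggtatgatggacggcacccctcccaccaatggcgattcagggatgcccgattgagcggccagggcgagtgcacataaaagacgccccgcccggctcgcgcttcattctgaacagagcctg
The Bmp4 window held CAGAC at 200 and 35 bases before the start and an E-box at 184 and 72 bases. The Id1 window held 1 E-box, 9 bases before the start, and that of Id2 held 1 E-box, 215 bases before it. Neither Id window held GGCGCC or CAGAC, and sites farther from the start were not searched. Of the analysed members not shown, which leaves out Grem1, Smad7 held GGCGCC at 96 and 36 bases before its start. Bmpr1a, Bmpr2 and Id3 held no match. Over 33469 rat promoter windows of the same length, 8.69% held GGCGCC, 42.9% held CAGAC and 65.5% held an E-box, so a match to either of the last 2 is common.

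In CIRBP against NC, 4 of the 9 members were called higher (Bmp2, Bmpr1a, Id1 and Id3) and 2 lower (Bmpr2 and Smad7), at a limma adjusted p under 0.05 over all genes. Bmpr2 was not called after either scaling of the libraries or without CIRBP library 3 or NC library 1 or 2, Smad7 was not called with the spread of all 12 libraries, and Smad6 and Id2 were called higher after either scaling. Calls were frequent among all genes, with 70.7% called, 27.9% higher and 42.8% lower. Groups that did not overlap were seen in 5 members with CIRBP higher and 2 with CIRBP lower, and in 74.7% of all genes, with CIRBP higher in 29.7% and lower in 45%. The members were chosen by their symbols with the expression values and differences of these libraries already known, so their counts and values are a description and no p-value is given for them. Differences are on the log2(FPKM + 1) scale with the SE of the limma fit.

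**Figure D1:**
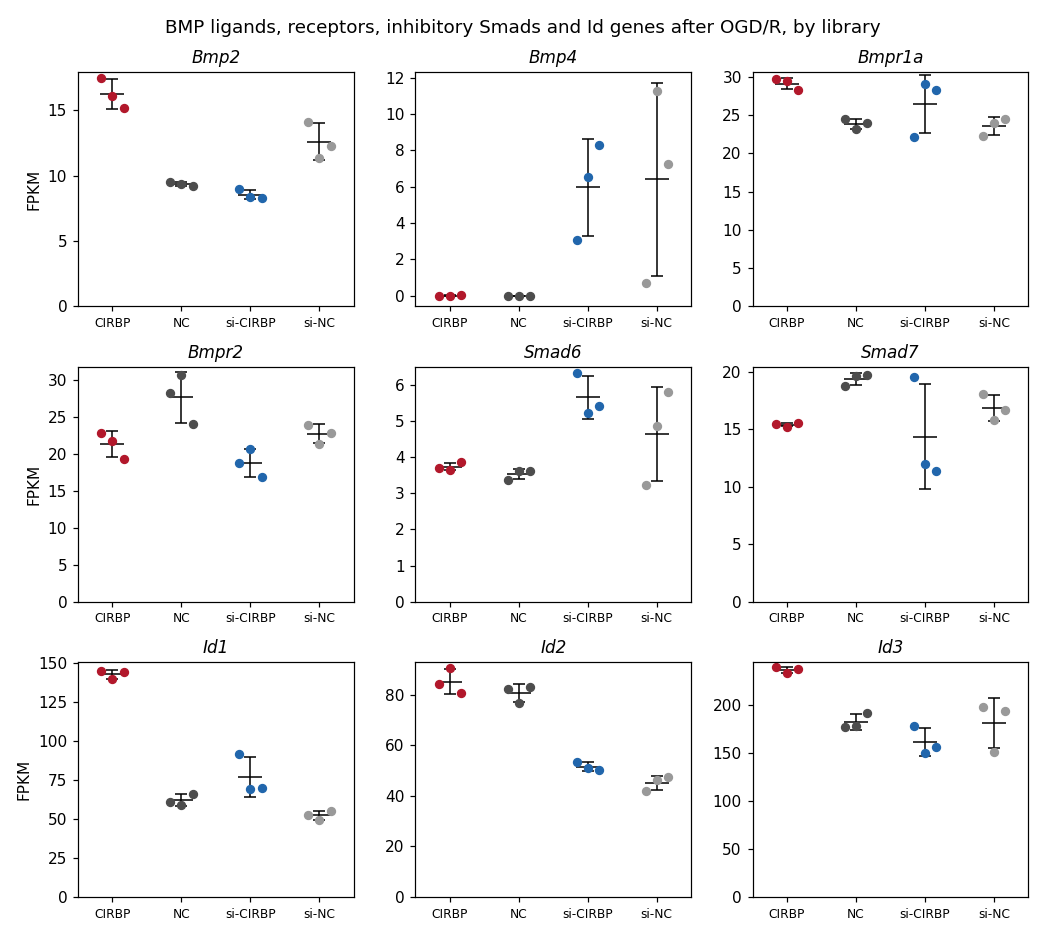
FPKM of the 9 members (vertical axis, from 0) in each library (points), with group means and SD (bars), in CIRBP, NC, si-CIRBP and si-NC. CIRBP lies above the other 3 groups in every library for Bmp2, Id1 and Id3, and Bmp4 is at or near 0 in CIRBP and NC.

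Bmp2 (ENSRNOG00000021276), a ligand that signals through Bmpr1a, had 17.5, 16.1 and 15.2 FPKM in CIRBP libraries 1 to 3, against 9.56, 9.38 and 9.20 FPKM in NC. Every CIRBP library lay above every NC library, with a ratio of the means of 1.73 and a log2 difference of 0.73 (SE 0.0539). The order was the opposite in the other arm, where Bmp2 had 8.97, 8.39 and 8.31 FPKM in libraries labelled si-CIRBP and 14.1, 11.4 and 12.3 FPKM in si-NC. All si-CIRBP libraries lay below all si-NC libraries, and the log2 difference was -0.50 (SE 0.106), or -0.46 without library 1 of both groups. The groups followed the order CIRBP, si-NC, NC and si-CIRBP by mean level, each above the next in every library.

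Bmp4 (ENSRNOG00000009694), a ligand close to Bmp2 in sequence, was listed at 0.0156, 0 and 0.018 FPKM in CIRBP libraries 1 to 3 and at 0 in every NC library. In the other arm it had 3.07, 6.55 and 8.28 FPKM in libraries labelled si-CIRBP, against 0.686, 11.2 and 7.28 FPKM in si-NC. The si groups overlapped, and library 1 was the lowest of each, at 41.4% of the mean of libraries 2 and 3 in si-CIRBP and 7.40% in si-NC. The difference between them, 0.25 (SE 0.75), was -0.61 without si-NC library 1, 0.82 without si-NC library 2 and -0.27 without library 1 of both groups. No fold is given against NC, where the gene is listed at 0.

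The type I receptor Bmpr1a (ENSRNOG00000052469) had 29.7, 29.4 and 28.2 FPKM in CIRBP, against 24.4, 23.2 and 23.9 FPKM in NC. The groups did not overlap and differed by 0.28 (SE 0.0313), a ratio of 1.22. Libraries labelled si-CIRBP had 22.1, 29.0 and 28.2 FPKM of it, against 22.2, 24.0 and 24.5 FPKM in si-NC. These groups overlapped only through si-CIRBP library 1, and their difference of 0.15 (SE 0.118) lay between 0.08 and 0.27 with 1 library left out, the highest without that one.

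The type II receptor Bmpr2 (ENSRNOG00000022196) had 22.8, 21.7 and 19.3 FPKM in CIRBP, against 28.2, 30.7 and 24.0 FPKM in NC. It was lower in every CIRBP library than in any NC library, with a difference of -0.36 (SE 0.10). It had 18.7, 20.7 and 16.9 FPKM in libraries labelled si-CIRBP, against 23.9, 21.4 and 22.8 FPKM in si-NC, also without overlap, and the difference was -0.26 (SE 0.0972). The receptor pair thus stood on opposite sides in CIRBP against NC, with more Bmpr1a and less Bmpr2 transcript.

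Smad7 (ENSRNOG00000018359), which blocks the activated receptors and recruits the Smurf ubiquitin ligases to them, had 15.4, 15.2 and 15.6 FPKM in CIRBP, against 18.8, 19.6 and 19.8 FPKM in NC. Each CIRBP library was lower than each NC library, and the difference was -0.31 (SE 0.0297). The libraries labelled si-CIRBP held 19.6, 12.0 and 11.4 FPKM, against 18.1, 15.8 and 16.7 FPKM in si-NC. Library 1 alone made these groups overlap, and the difference of -0.26 (SE 0.201) became -0.49 without it and -0.12 without library 3.

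Smad6 (ENSRNOG00000009173), which acts mainly on BMP rather than TGF-beta receptors, had 3.71, 3.65 and 3.85 FPKM in CIRBP, against 3.37, 3.61 and 3.61 FPKM in NC. The groups did not overlap, but by a margin smaller than the spread within either, and the difference was 0.07 (SE 0.050). Under the si-CIRBP label it had 6.34, 5.23 and 5.42 FPKM, against 3.24, 4.85 and 5.82 FPKM in si-NC, with overlap. That difference was 0.27 (SE 0.193), between 0.07 and 0.42 with 1 library left out, and 0.00 without library 1 of both groups.

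Id1 (ENSRNOG00000021750), the Id gene best known as a BMP target, showed the largest difference of the members in CIRBP against NC. It had 145, 139.7 and 144 FPKM in CIRBP, against 60.9, 58.7 and 66.2 FPKM in NC. The groups lay far apart, with a ratio of the means of 2.31 and a difference of 1.20 (SE 0.0456). Libraries labelled si-CIRBP had 91.9, 69.2 and 70.0 FPKM of it, against 52.8, 49.3 and 55.1 FPKM in si-NC. These groups did not overlap either, the ratio was 1.47 and the difference was 0.54 (SE 0.124), or 0.40 without si-CIRBP library 1. Id1 was thus higher in both arms, whereas the ligand Bmp2 was higher in CIRBP and lower in si-CIRBP than in the matching control.

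Id3 (ENSRNOG00000026124), the member with the highest level, had 239, 233 and 237 FPKM in CIRBP, against 177, 178 and 192 FPKM in NC. The groups did not overlap, with a ratio of 1.30 and a difference of 0.37 (SE 0.0353). It had 178, 149.8 and 156 FPKM in libraries labelled si-CIRBP, against 198, 151 and 194 FPKM in si-NC. Here the groups overlapped, and the difference was -0.16 (SE 0.129), between -0.28 and -0.09 with 1 library left out.

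Id2 (ENSRNOG00000007237), which is controlled by many signals besides BMP, overlapped between CIRBP, with 84.5, 90.6 and 80.9 FPKM, and NC, with 82.5, 76.8 and 83.1 FPKM. The difference was 0.08 (SE 0.0502), the smallest of the 3 Id genes. The libraries labelled si-CIRBP held 53.5, 50.9 and 50.3 FPKM, against 42.0, 46.2 and 47.4 FPKM in si-NC. These did not overlap, and the difference of 0.19 (SE 0.0737) became 0.11 without library 1 of both groups. All 6 libraries of CIRBP and NC lay above all 6 of the si groups.

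**Figure D2:**
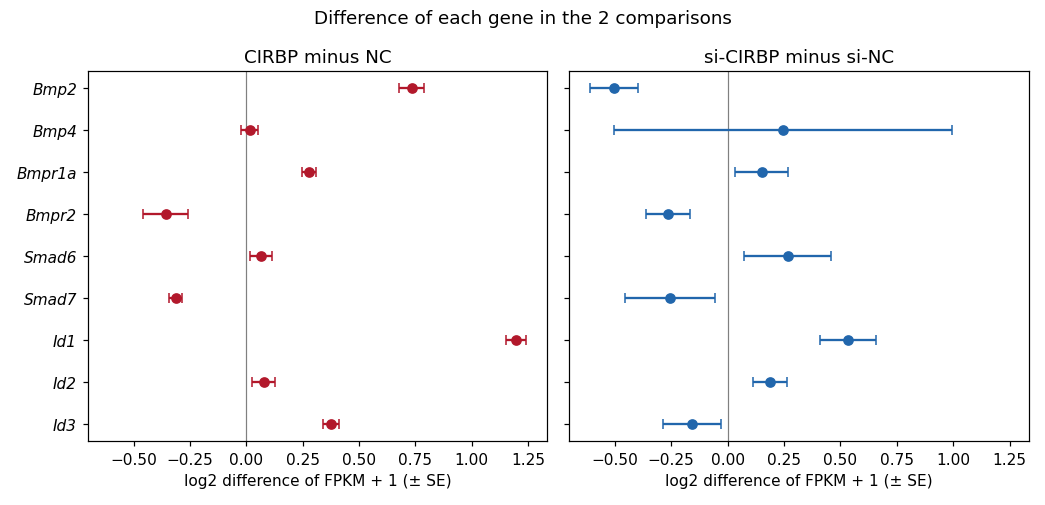
Difference of each member on the log2(FPKM + 1) scale (horizontal axis, points) with its SE (bars), for CIRBP minus NC on the left and si-CIRBP minus si-NC on the right. Id1 is right of 0 in both panels, Bmpr2 and Smad7 are left of 0 in both, and Bmp2 and Id3 change side.

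In the si arm only Bmp2 was called, as lower, where 8.1% of all genes were called, 1.87% higher and 6.24% lower. Groups without overlap were seen for Id1 and Id2, with si-CIRBP higher, and for Bmp2 and Bmpr2, with si-CIRBP lower. Of all genes, 36.1% had no overlap there, with si-CIRBP higher in 11.7% and lower in 24.3%. Bmp2 was no longer called without si-CIRBP library 2 or 3 or any single si-NC library, and Bmp2, Smad7 (lower) and Id1 (higher) were called without si-CIRBP library 1. After scaling to one median Bmp2 was not called and Id1 was called higher, and by median ratios both were called. Between the arms, the difference in CIRBP minus that in si-CIRBP was 1.24 (SE 0.112) for Bmp2, 0.66 (SE 0.139) for Id1 and 0.53 (SE 0.139) for Id3. These 3 were the members called in that comparison, where 17.8% of all genes were called, 6.87% higher and 10.9% lower. Id3 was not called there without any one of CIRBP libraries 1 to 3, NC libraries 1 and 2, si-CIRBP libraries 2 and 3 and si-NC library 3.

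The median of all genes in CIRBP minus NC was -0.08 as deposited, 0.03 when each library had been scaled to one median, a move of over 0.1, and 0.01 when median ratios were used. Every member kept its sign in CIRBP minus NC and in si-CIRBP minus si-NC under both. Relative to that shift, Bmpr2 stood at -0.21 and Smad7 at -0.17 in CIRBP minus NC after scaling to one median, and Id2 at 0.23. The members' median difference was 0.08, beside -0.08 for all genes, and in the si arm it was 0.15, beside -0.04 for all genes.

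Among 67 other genes of the pathway, listed by role and not for how they moved, 50 had a row and 40 were tested. In CIRBP against NC, 15 were called higher and 18 lower, with a median difference of -0.02, beside -0.08 for all genes. The 18 include Dand5, Nbl1 and Eng, which met the 1 FPKM minimum only through some groups and are not read as results. After scaling to one median, 18 were called higher and 11 lower. These 33 calls, and the counts by role below, stand beside 70.7% of all genes called in either direction, 27.9% higher and 42.8% lower.

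**Figure D3:**
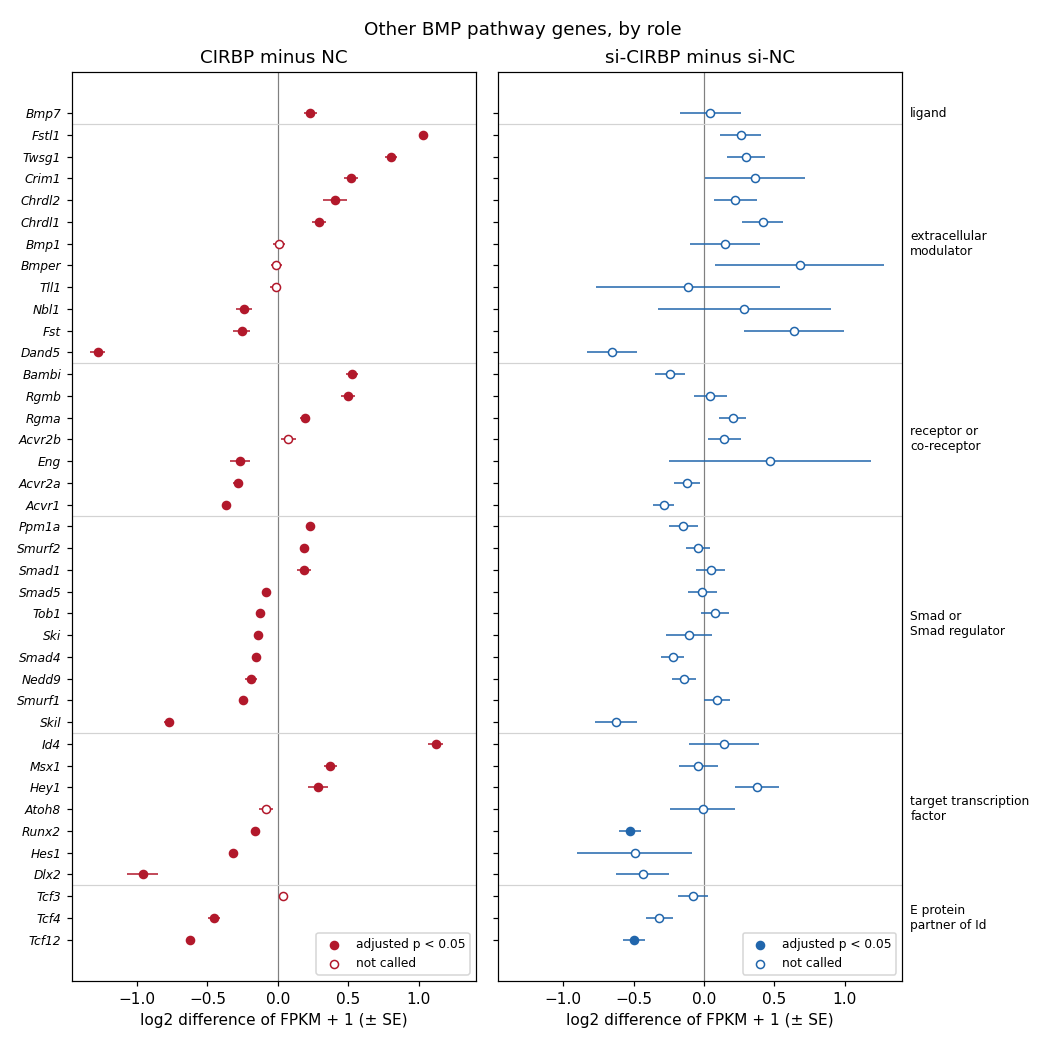
Difference on the log2(FPKM + 1) scale (horizontal axis, points, with SE as bars) of other pathway genes, in groups by role, for CIRBP minus NC on the left and si-CIRBP minus si-NC on the right. Filled points passed a limma adjusted p of 0.05, which 33 genes did on the left and 2 on the right.

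Bmp7 was the only other ligand tested, and it rose to 6.11 ± 0.0843 FPKM in CIRBP, against 5.06 ± 0.22 FPKM in NC (log2 difference 0.23, SE 0.047, limma adjusted p = 0.00455). With the spread taken from all 12 libraries that call was lost (limma adjusted p = 0.256).

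Of 12 extracellular modulators tested, 5 were called higher and 3 lower, among them Nbl1 and Dand5. Nbl1, Bmper and Tll1 met the 1 FPKM minimum through the si groups and were low in CIRBP and NC. Nbl1 averaged 0.678 FPKM in CIRBP and 0.983 FPKM in NC, and its call is not read as a result. Fstl1, a secreted glycoprotein related to follistatin, averaged 199.9 ± 4.98 FPKM in CIRBP and 97.2 ± 2.10 FPKM in NC (difference 1.03, SE 0.0269, limma adjusted p = 1.23e-06). Twsg1, which binds BMPs and can either aid or oppose the antagonist chordin, averaged 52.5 ± 2.72 FPKM in CIRBP and 29.6 ± 0.965 FPKM in NC (0.81, SE 0.0433, limma adjusted p = 1.13e-05). For both, every CIRBP library lay above every NC library. Crim1, a membrane protein that binds BMPs, averaged 15.4 ± 0.659 FPKM in CIRBP and 10.4 ± 0.568 FPKM in NC (0.52, SE 0.0506, limma adjusted p = 0.000148, and 0.141 with the spread of all 12 libraries). Dand5, a secreted antagonist of the nodal and BMP families, fell to 0.0884 ± 0.0447 FPKM in CIRBP, against 1.64 ± 0.0727 FPKM in NC (-1.28, SE 0.0531, limma adjusted p = 4.54e-06). It reached 1 FPKM in the 3 NC libraries and in si-NC library 3 alone, so it was tested only through groups where it is high, and its call is not read as a result.

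Of 7 other receptors and co-receptors tested, 3 were called higher and 3 lower. The lower calls include Eng, at 0.198 FPKM in CIRBP and 0.446 FPKM in NC. Eng met the 1 FPKM minimum only through the si groups, so its call is not read as a result. Bambi, a decoy receptor without a kinase that is itself induced by BMP, averaged 22.7 ± 0.967 FPKM in CIRBP and 15.4 ± 0.502 FPKM in NC (0.53, SE 0.0412, limma adjusted p = 5.53e-05). Rgmb, a BMP co-receptor, averaged 17.3 ± 0.212 FPKM in CIRBP and 11.9 ± 0.755 FPKM in NC (0.50, SE 0.0474, limma adjusted p = 0.000134). The type I receptor Acvr1 fell to 13.0 ± 0.18 FPKM in CIRBP, against 17.0 ± 0.388 FPKM in NC (-0.37, SE 0.0303, limma adjusted p = 7.1e-05). The type II receptor Acvr2a also fell, with a difference of -0.28 (SE 0.0344, limma adjusted p = 0.000416). After scaling to one median these falls were smaller, at -0.22 for Acvr1 and -0.14 for Acvr2a, and both stayed called.

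All 10 Smads and Smad regulators tested were called, 3 higher and 7 lower, where 27.9% of all genes were called higher and 42.8% lower. After either scaling the calls were only 3 higher and 2 lower. Skil, a repressor that binds Smad4, fell to 17.5 ± 0.378 FPKM in CIRBP, against 30.6 ± 0.934 FPKM in NC (-0.78, SE 0.0315, limma adjusted p = 4.32e-06). In the other arm Skil averaged 20.6 ± 3.75 FPKM in libraries labelled si-CIRBP and 32.1 ± 3.86 FPKM in si-NC (-0.62, limma adjusted p = 0.0556). Smurf1, a ubiquitin ligase for the BMP Smads, fell, with a difference of -0.25 (SE 0.0185, limma adjusted p = 4.71e-05), or -0.10 after scaling to one median. The related ligase Smurf2 rose by 0.19 (SE 0.0229, limma adjusted p = 0.000432). Ppm1a, a phosphatase that acts on Smads, rose by 0.23 (SE 0.0246, limma adjusted p = 0.000231).

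Among 7 other target transcription factors, 3 rose and 3 fell. Id4 (ENSRNOG00000016099), the remaining Id gene, had 73.1, 73.9 and 72.0 FPKM in CIRBP, against 33.3, 30.5 and 35.5 FPKM in NC. The groups lay far apart (1.12, SE 0.0529, limma adjusted p = 6.96e-06), close to the difference of Id1. Under the si-CIRBP label it had 21.7, 39.3 and 39.2 FPKM, against 32.7, 24.1 and 31.5 FPKM in si-NC, which overlapped (0.14, limma adjusted p = 0.759). Msx1, a homeobox gene induced by BMPs, rose by 0.37 (SE 0.0492, limma adjusted p = 0.000607). Hes1, better known as a Notch target, fell to 30.0 ± 0.211 FPKM in CIRBP, against 37.6 ± 0.884 FPKM in NC (-0.32, SE 0.0238, limma adjusted p = 4.74e-05), and that call was lost with the spread of all 12 libraries (limma adjusted p = 0.437). In si-CIRBP Hes1 stood at 45.5, 15.0 and 15.6 FPKM, so library 1 set that wide spread. Dlx2, a homeobox gene, fell to 1.73 ± 0.184 FPKM in CIRBP, against 4.34 ± 0.683 FPKM in NC (-0.96, SE 0.11, limma adjusted p = 0.000315).

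Of the 3 E proteins, the partners that Id proteins bind, 2 fell and Tcf3 was not called. Tcf12 fell to 47.4 ± 1.66 FPKM in CIRBP, against 73.5 ± 1.13 FPKM in NC (-0.62, SE 0.0296, limma adjusted p = 7.1e-06). Tcf4 fell to 17.4 ± 0.552 FPKM in CIRBP, against 24.2 ± 1.18 FPKM in NC (-0.46, SE 0.043, limma adjusted p = 0.000129). Tcf3 averaged 41.6 FPKM in CIRBP and 40.4 FPKM in NC (0.04, limma adjusted p = 0.137), and was called higher after either scaling. Summed per library, Id1 to Id4 came to 538 ± 4.11 FPKM in CIRBP and 358 ± 16.7 FPKM in NC, and the 3 E proteins to 106 ± 1.12 FPKM in CIRBP and 138 ± 1.25 FPKM in NC. In the other arm the Id sum was 323 ± 19.0 FPKM in si-CIRBP and 308 ± 32.2 FPKM in si-NC, and the E protein sum was 95.2 ± 6.69 FPKM in si-CIRBP and 118 ± 5.60 FPKM in si-NC. The sums hold members and are given as a description, with no test.

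Of the same 40 genes, 2 were called in the libraries labelled si-CIRBP against si-NC, both lower, where 8.1% of all genes were called. Runx2, a bone transcription factor that works with BMP Smads, averaged 13.9 ± 0.168 FPKM in si-CIRBP and 20.5 ± 1.27 FPKM in si-NC (-0.53, SE 0.0791, limma adjusted p = 0.0193). Tcf12 averaged 39.6 ± 1.47 FPKM in si-CIRBP and 56.4 ± 4.34 FPKM in si-NC (-0.50, SE 0.0794, limma adjusted p = 0.0222). Both were lower in every si-CIRBP library. Neither was called without si-CIRBP library 2 or 3 or si-NC library 1 or 3, where the limma adjusted p was 0.0536 to 0.101 for Runx2 and 0.0536 to 0.106 for Tcf12. Without si-CIRBP library 1, 4 of the 40 were called, where 1889 of all 14257 genes were. Without library 1 of both groups 9 were called, 3 higher and 6 lower. Of all genes 2350 were called there, 829 higher and 1521 lower. In CIRBP against NC, Runx2 fell, with a difference of -0.16 (SE 0.0323, limma adjusted p = 0.00449), a call lost after either scaling.

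The controls themselves differed. In si-NC against NC, 2 members were called higher (Bmp2 and Bmp4) and 2 lower (Id1 and Id2), where 31.6% of all genes were called, 10.2% higher and 21.4% lower. Bmp4 entered the test only through the si groups, where it is high, so its call is not read as a result. Without overlap, 2 members were higher and 4 lower in si-NC, and 53.1% of all genes were apart, 19.1% higher and 34% lower. Id2 differed most among those with a level above 0 in both, with a ratio of 0.559 and a difference of -0.83 (SE 0.0614), and Bmp2 differed by 0.39 (SE 0.0826). Id2 was called with any single library left out, whereas Bmp2 was not without NC library 1, 2 or 3 or si-NC library 3. Id1 was called only without si-NC library 1 among these, and not after either scaling, with no trend or with the spread of all 12 libraries. Smad6 (higher) and Smad7 (lower) were also called without si-NC library 1. The columns of the arms differ in the ad prefix, and no label used here tells what else differed, so the sources of this difference cannot be told apart.

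By a rule of closest match over the 12 libraries on the centred log2(FPKM + 1) scale, the genes most like Bmp4 were Lum, a proteoglycan of connective tissue, Hmcn1, a matrix protein, and Lpl, the lipoprotein lipase. Their root mean square differences from Bmp4 were 0.0896, 0.127 and 0.155, where the group means of Bmp4 spanned 2.72. Lum had 2.72, 7.06 and 8.13 FPKM in si-CIRBP and 0.699, 12.5 and 8.84 FPKM in si-NC, and at most 0.0198 FPKM in every library of CIRBP and NC. Lum, Hmcn1 and Lpl were picked for their likeness and met the 1 FPKM minimum only through the si groups. Their levels are therefore a description. Several BMP modulators and the co-receptor Eng, picked after their values were seen, were likewise higher in the si groups. Bmper, a secreted BMP-binding protein, had 7.57, 5.64 and 6.16 FPKM in si-CIRBP and 0.658, 7.12 and 6.37 FPKM in si-NC, and at most 0.0316 FPKM in CIRBP and NC. Bmper, Tll1, Nbl1 and Eng were also low in si-NC library 1, at 8.40% to 15.4% of the mean of libraries 2 and 3.

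**Figure D4:**
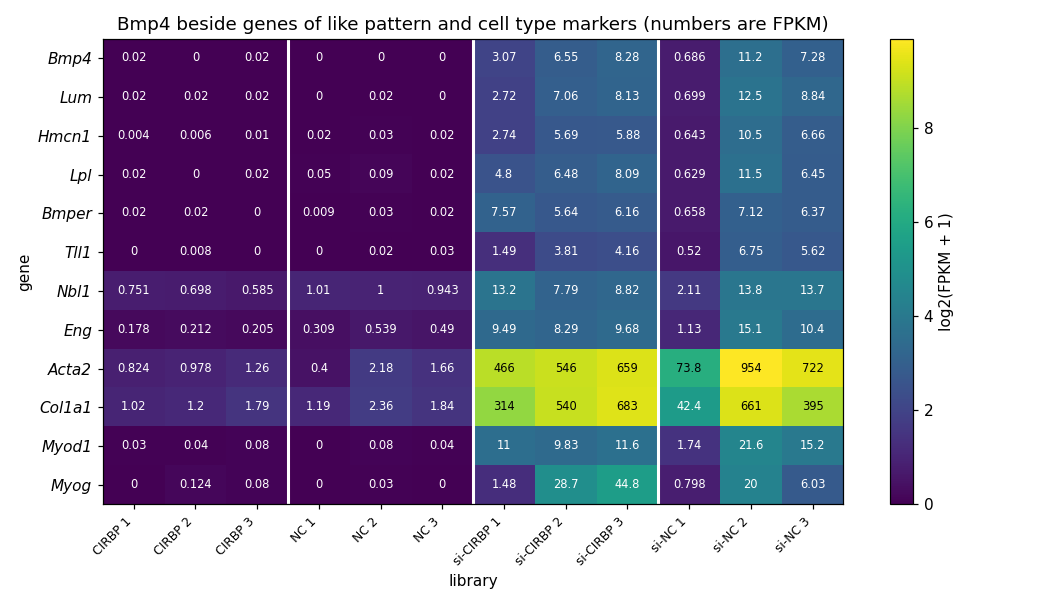
FPKM (printed) and log2(FPKM + 1) (colour) of Bmp4, of the 3 genes most like it, of other BMP pathway genes and of connective tissue and muscle markers, by library (columns). Apart from Bmp4 and its matched genes, rows were picked after their low levels in CIRBP and NC were seen. CIRBP and NC columns are therefore near 0 for most rows, and markers that go the other way, such as Pdgfra and Actc1, are not shown. In all rows si-NC library 1 is lower than si-NC libraries 2 and 3.

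Most markers of smooth muscle, fibroblasts and skeletal or cardiac muscle were, like Bmp4, higher in the si groups. Both si means lay above those of CIRBP and NC for 5 of 6 smooth muscle, 6 of 7 fibroblast and 9 of 12 muscle markers with a row. Of the exceptions, both si means of Pdgfra and Actc1 lay below those of CIRBP and NC, and those of Smtn, Tnnt1 and Tnni1 lay neither above nor below both. Pdgfra averaged 75.3 FPKM in si-CIRBP and 65.8 FPKM in si-NC, against 159 FPKM in CIRBP and 86.8 FPKM in NC, where it made up most of the fibroblast sum. The 6 smooth muscle markers summed to 756 to 961 FPKM in si-CIRBP and 184 to 1442 FPKM in si-NC, against 93.8 to 96.8 FPKM in CIRBP and 78.6 to 79.7 FPKM in NC. The 7 of 9 fibroblast markers with a row summed to 675 to 1296 FPKM in si-CIRBP and 162 to 1307 FPKM in si-NC, against 159.7 to 171 FPKM in CIRBP and 95.5 to 96.8 FPKM in NC. The 12 of 15 muscle markers with a row summed to 37.4 to 224 FPKM in si-CIRBP and 19.1 to 158 FPKM in si-NC, against 7.51 to 8.92 FPKM in CIRBP and 10.1 to 12.1 FPKM in NC. Acta2, the smooth muscle actin, had 466, 546 and 659 FPKM in si-CIRBP, against 73.8, 954 and 722 FPKM in si-NC, and at most 1.26 FPKM in CIRBP and 2.18 FPKM in NC. Endothelial and macrophage markers were low in all groups, with sums of at most 8.30 and 3.98 FPKM. The astrocyte markers, of which S100b gave most of the sum, summed to 147 to 192 FPKM in si-CIRBP and 159 to 181 FPKM in si-NC, against 201 to 214 FPKM in CIRBP and 170.4 to 181 FPKM in NC. Gfap averaged 2.76 FPKM in si-CIRBP and 1.89 FPKM in si-NC, against 6.88 FPKM in CIRBP and 4.50 FPKM in NC, and Gja1, a gap junction gene, averaged 27.3 FPKM in si-CIRBP and 25.2 FPKM in si-NC, against 17.5 FPKM in CIRBP and 10.1 FPKM in NC. In bulk RNA, fewer cells of a type and less RNA per cell cannot be told apart, and the part of these markers in the level of Bmp4 was not tested.

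The genes most like Id1 were Kif1a, a motor of axonal transport, Ajap1, a junction-associated membrane protein, and Acbd4, an acyl-CoA-binding protein, with root mean square differences of 0.0918, 0.0934 and 0.0977, where the group means of Id1 spanned 1.43. Kif1a had 3.85, 3.70 and 3.29 FPKM in CIRBP, against 0.947, 0.828 and 1.00 FPKM in NC. It had 1.47, 1.04 and 1.13 FPKM in si-CIRBP, against 0.775, 0.624 and 0.682 FPKM in si-NC. It was higher in every library of CIRBP and si-CIRBP than in the matching control. The choice by likeness to Id1 favours that order, so sharing it is no further result. At levels as low as those of Kif1a the log2(FPKM + 1) scale understates changes, so its likeness to Id1 holds on that scale only. The group means of the other 7 members spanned less than 1, so no genes were matched to them.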

How the data were processed

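Poly-A RNA of 12 libraries had been sequenced in pairs, per the labels' protocols. Per the file headers, the authors deposited 1 FPKM value for each gene in each library. The submitters' processing notes list Bowtie2 2.3.3.1, Cufflinks 2.2.1 and 2 mouse builds (mm10, GRCm38) without a role, while 16618 of the 18344 identifiers are rat Ensembl identifiers, so the build used is unclear. The strand setting and the handling of reads shared by related genes, such as the Id family, were not given in the sources used here. FPKM hold no absolute depth, so no counting intervals were computed, and a value of exactly 0 can be a failed estimate.

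Groups were compared with limma 3.58.1 in R 4.3.3 (eBayes with a trend, two-sided, Benjamini and Hochberg adjustment over 14257 genes, called under 0.05) on log2(FPKM + 1), computed from the deposited values. A difference on that scale understates changes of low genes. Each comparison of 2 groups used its own 6 libraries, and the difference between arms used all 12. The fit was also run on simulated libraries with few changed genes and the same spread in every group. The libraries here differ in both, so that run does not vouch for the calls. The members and lists were chosen with earlier results of these data known. The other pathway genes were listed from general knowledge by role, and those named were the members and, per role and arm, the 4 called genes with the smallest adjusted p. Genes of like pattern were the 3 closest to each member whose group means spanned at least 1. Alternatives were a pseudocount of 0.1, no filter, 2 scalings, all libraries in one fit, no trend, a replicate block and leaving out libraries. The fit without library 1 of both si groups was chosen after seeing the data. Promoters and their coordinates are from RefSeq (GRCr8), matched by symbol. The values of 1 further gene of the pathway list are not reported here.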

Additional observations from a re-analysis of the deposited data

Results flagged for a closer look

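For 8 of the 40 other pathway genes tested, where 17.8% of all genes were called, the change in CIRBP against NC differed from that in si-CIRBP against si-NC, by a limma test of the difference itself over all 12 libraries (log2 difference of differences, adjusted over all genes tested). It was 0.77 for Fstl1 (limma adjusted p = 0.0071), 0.77 for Bambi (limma adjusted p = 0.00148) and 0.37 for Runx2 (limma adjusted p = 0.0082), and these calls held under all 19 alternatives run. Bambi averaged 22.7 FPKM in CIRBP and 15.4 FPKM in NC, against 10.5 FPKM in si-CIRBP and 12.7 FPKM in si-NC. It was 0.51 for Twsg1 (limma adjusted p = 0.0387), 0.45 for Rgmb (limma adjusted p = 0.0335), -0.34 for Smurf1 (limma adjusted p = 0.0318), 0.38 for Ppm1a (limma adjusted p = 0.0346) and 0.98 for Id4 (limma adjusted p = 0.0332). Each of these 5 was lost in 8 to 10 of the 19, in every case without any one CIRBP library, NC library 1 or 3 or si-NC library 3, with limma adjusted p up to 0.0971. For the member Bmp2 every CIRBP library lay above NC and every library labelled si-CIRBP lay below si-NC. The difference of 1.24 is a description with no p-value, since the members were chosen on these data.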

How the results depend on the processing

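The main fits did not pair samples by replicate number. In CIRBP and NC, correlations of same-numbered deviations were 0.0965, 0.0482 and 0.0995. Those of differently numbered ones were all negative, from -0.083 to -0.0082, so each CIRBP library correlated best with its own number. Deviations from a group mean cancel, so positive values force negative ones on average, and the negative signs are not separate evidence. A replicate block there gave 10047 genes called, against 10077 without it. In the si groups, same-numbered correlations were between -0.090 and 0.0405, and those of differently numbered ones between -0.0967 and 0.0921. The numbers thus showed no pairing of the si libraries. With the number as a replicate block, calls in si-CIRBP minus si-NC were 100 over all genes, 0 members and 0 other pathway genes, against 1155, 1 and 2 without it, where limma gave 3922 genes an unadjusted p under 0.05. In si-NC minus NC the block gave 2584 genes and 10 pathway genes, against 4503 and 21. For the difference between arms it gave 1590 and 5, against 2535 and 8.

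Taking the spread from all 12 libraries, si-CIRBP minus si-NC had 4218 genes, 3 members and 11 pathway genes. Without library 1 of both si groups it had 2350, 3 and 9, si-NC minus NC had 7033 genes, and the difference between arms had 5899 genes and 20 pathway genes. Scaling by median ratios gave 2 members in the si arm, no filter gave 4 pathway genes there, and no trend gave 2 members in si-NC minus NC, against 4. For the difference between arms Smad6 was at 0.063 without library 1 of both si groups, against -0.20 with them.

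Leaving out 1 library gave 9485 to 9731 genes, 5 to 6 members and 32 to 33 pathway genes in CIRBP minus NC. It gave 75 to 1889 genes, 0 to 3 members and 0 to 4 pathway genes in si-CIRBP minus si-NC, with the lowest count of genes without si-NC library 3 and the highest without si-CIRBP library 1. It gave 1270 to 7033 genes, 1 to 6 members and 3 to 29 pathway genes in si-NC minus NC, the lowest without NC library 2 and the highest without si-NC library 1. For the difference between arms it gave 1596 to 4503 genes, 2 to 3 members and 3 to 13 pathway genes, the highest without si-CIRBP library 1. The causes of these moves, the smaller number of libraries among them, were not tested.

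Of called genes in CIRBP minus NC, 3978 were higher and 6099 lower, against 5324 and 4763 after scaling to one median and 5123 and 4983 by median ratios. In si-CIRBP minus si-NC, 266 were higher and 889 lower, against 618 and 570 or 465 and 708, and for the difference between arms 980 and 1555, against 1310 and 1376 by median ratios. After scaling to one median, members called in CIRBP minus NC were 6 higher and 1 lower, against 4 and 2. Of 540 values of members under the alternatives, 511 stayed within the replicate spread. No filter, no trend, all libraries in one fit and the replicate block leave a difference of 2 groups unchanged. Leaving out 1 of 3 libraries cannot move it beyond that spread, so this count is no measure of robustness. Of 1200 values for named pathway genes, 1043 kept their direction and call. The unknown depth limits low genes such as Dand5 and Bmp4.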
